A study of Mus musculus with 14 samples.

Results

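Endothelial identity in these arrays was followed through 10 transcription factor genes: the Sox genes Sox7, Sox17 and Sox18, the Ets genes Erg, Fli1 and Ets1, the zinc finger gene Gata4, the paired regulators Tal1 and Lmo2, and Maf. Every probe set carrying 1 of these symbols was taken, which gave 23 of the 45101 probe sets on the array and 10 of the 18193 genes with a probe set of their own. A filter on dim probe sets, described with the levels, kept 21 of them for testing and kept at least 1 for each gene. Erg 1425370_a_at and Sox7 1432495_at stayed below it.

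RNA came from mice of FVBn background that all carried floxed alleles (L/L) of Fk1, Fk2 and Afx, older names of the forkhead genes Foxo1, Foxo3 and Foxo4. Cre+ mice (MxCre+) also carried Cre under the interferon-inducible Mx promoter, and control mice (MxCre-) had the floxed alleles without Cre. There were 3 Cre+ and 3 control arrays of liver sinusoidal endothelial cells (LSEC), 2 Cre+ and 2 control arrays of lung endothelial cells, and 2 Cre+ and 2 control arrays of thymus cells. Age, the induction and isolation steps, and whether replicates were separate animals are not given in the labels, so p-values measure only the spread between these samples. Because controls lack Cre altogether, the effects of Cre and of the deletion cannot be told apart.

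Ets factors bind a short purine-rich motif found in the enhancers of most endothelial genes. Erg and Fli1 are among the main Ets factors of endothelium, and Ets1 is also abundant in T lymphocytes. The related proteins Sox7, Sox17 and Sox18 form the Sox F group, which acts in vessel formation and in arterial and lymphatic fate. Tal1, a basic helix-loop-helix factor, and Lmo2, a LIM-domain bridging protein, join GATA factors in shared complexes in blood and endothelial cells. In mice, Gata4 acts in liver sinusoidal endothelium, where it favours the discontinuous capillary type. Maf encodes the basic leucine zipper factor c-Maf, also present in macrophages and T cells.

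Promoter windows in RefSeq (GRCm38.p6), from 250 bases before to 50 after a gene start, matched 2 of the 10 genes, Tal1 with 2 windows and Erg with 3. The set of windows used held none for Gata4, Sox7, Sox17, Sox18, Fli1, Ets1, Lmo2 and Maf, so these genes were not searched. The letters AGATAA, a common form of the motif of GATA factors, were searched on both strands, where the minus strand reads TTATCT. They occurred in 2 of these 5 windows, against 11.2% of all 32851 windows of the same length. The forkhead core GTAAACA, searched on both strands with TGTTTAC for the minus strand, occurred in 0 of the 5, against 3.65% of all windows, so the motifs did not overlap there. The 5 windows come from only 2 genes, and a part of Gata4 in the levels of Tal1 or Erg was not tested. The 250 bases before the start are shown for the matching window of each gene, because Tal1 works in complexes with GATA factors. The Erg stretch lies inside the Erg gene (chr16:95359169-95586600), before an internal start, so transcripts from the other Erg starts can cross it. Capitals mark the GATA letters, which are a match of letters and not a measured binding site. The Tal1 stretch lies at chr4:115056176-115056425 on the plus strand, with the match starting at base 46, and the Erg stretch at chr16:95459349-95459598 on the minus strand, with the match starting at base 148.
Tal1: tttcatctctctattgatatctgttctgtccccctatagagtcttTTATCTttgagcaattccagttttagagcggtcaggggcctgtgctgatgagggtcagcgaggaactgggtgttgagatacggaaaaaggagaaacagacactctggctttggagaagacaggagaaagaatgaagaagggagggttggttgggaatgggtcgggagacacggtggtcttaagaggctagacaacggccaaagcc
Erg: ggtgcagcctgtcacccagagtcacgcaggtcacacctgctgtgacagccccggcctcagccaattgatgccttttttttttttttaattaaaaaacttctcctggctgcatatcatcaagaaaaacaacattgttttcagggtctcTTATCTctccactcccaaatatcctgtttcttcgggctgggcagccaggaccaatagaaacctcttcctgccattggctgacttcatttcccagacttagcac

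Arrays of 1 group correlated at Pearson's r between 0.9685 and 0.9867 over all probe sets that passed the filter, and arrays of different tissues between 0.5293 and 0.8549. As a check of the genotype labels, the brightest Foxo4 probe set differed by -2.15 on the log2 scale in LSEC (Cre+ minus control, limma adjusted p = 0.000209) and by -3.24 in thymus (adjusted p = 0.000501). Foxo1 differed by -0.93 in LSEC (adjusted p = 0.00145) and by -1.19 in thymus (adjusted p = 0.01). Foxo3 differed by -0.53 in LSEC (adjusted p = 0.00474) but by 0.68 in thymus (adjusted p = 0.0215). In lung, none of these 3 passed the test, with -0.51 for Foxo1, 0.10 for Foxo3 and -1.10 for Foxo4. LSEC had a pan-endothelial list mean of 10.35 to 10.68 in Cre+ and 10.66 to 10.99 in control samples. Thymus had a T cell list mean of 11.54 to 11.6 in Cre+ and 11.44 to 11.47 in control samples. In lung the pan-endothelial list averaged 9.29 and 9.4 in Cre+ and 9.61 and 9.31 in control samples. The lung endothelial list did not set lung apart, at 8.13 and 7.97 in Cre+ lung and 8.0 and 8.04 in control lung. It averaged 8.41 to 8.61 in Cre+ LSEC and 7.96 to 8.23 in control LSEC. Lung arrays also held a lung epithelial list mean of 10.27 to 10.62 in Cre+ and 10.37 to 10.4 in control samples, and a stellate and fibroblast list mean of 9.79 to 9.97 in Cre+ and 9.92 to 10.07 in controls, so that RNA labelled lung endothelial was not endothelial alone. In such bulk RNA, fewer cells of a type and less RNA per cell cannot be told apart.

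All levels are quantile-normalised log2 intensities of 1 probe set, and a probe set's level is compared only with itself across arrays. A probe set was tested where its highest tissue mean reached 6.87, the 40th percentile of all probe sets. Differences that involve a level under 6.87 are of uncertain size, because dim signals are compressed. Of the 23 probe sets, 10 passed this level in all 3 tissues, 9 in LSEC and lung only, and both Gata4 probe sets in LSEC only. As the filter takes the highest tissue, it favours probe sets that differ between tissues, and counts over the tested members carry no support for such differences.

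The levels of these factors differed between control LSEC and control lung samples. Of the 21 probe sets, 14 were higher and 2 lower in control LSEC than in control lung endothelium, and 5 did not pass (limma, adjusted p under 0.05). Of all probe sets tested, 43.3% passed, 23.3% as higher and 20.0% as lower. The levels of the 2 groups did not overlap for 18 of the 21, against 66.2% of all probe sets. The median difference was 1.00 over the members and 0.06 over all probe sets. Gata4, Sox17 and Maf stood higher in LSEC, and Sox18 and Lmo2 higher in lung. The pan-endothelial marker list was also higher in LSEC, at 10.66 to 10.99 in control LSEC against 9.61 and 9.31 in control lung. The part of endothelial cell content in the member differences was not tested.

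Gata4 was the only member gene above the filter level in just 1 tissue, LSEC. Its brighter probe set, 1418863_at, averaged 9.0 ± 0.24 in Cre+ LSEC and 8.75 ± 0.20 in control LSEC (SD, n = 3 each). In lung it read 5.23 and 4.97 in Cre+ samples and 5.85 and 5.20 in controls. In thymus it read 4.81 and 5.65 in Cre+ samples and 5.03 and 4.96 in controls. All lung and thymus values lay under the filter, and the 4 groups of these tissues overlapped as neighbours in the order of means. Control LSEC exceeded control lung by 3.22 (SE 0.25, adjusted p = 3.53e-06), a size made uncertain by the dim lung values, and by 1.96 on 1418864_at (adjusted p = 0.000383). Both probe sets passed the filter through LSEC alone, which favours this difference, so its p-values are not independent support.

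Sox17, the Sox F factor tied to arterial identity, was also highest in LSEC. On 1421657_a_at it read 10.56, 10.73 and 10.80 in Cre+ LSEC and 10.27, 10.49 and 10.06 in control LSEC. In lung it read 7.01 and 7.05 in Cre+ samples and 7.87 and 7.56 in controls, and in thymus 5.88 and 6.12 in Cre+ samples and 5.66 and 5.62 in controls. No neighbouring groups overlapped in the order of means for this probe set. Control LSEC exceeded control lung by 2.56 (SE 0.14, adjusted p = 3.3e-07), and by 2.28 on the brighter 1429177_x_at (adjusted p = 3.03e-06), whose suffix marks probes that may cross-hybridise.

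Sox18 and Sox7 ran in opposite directions between the endothelia. Sox18, whose loss in mice disturbs lymphatic development, was lower in control LSEC than in control lung by a difference of -1.39 (SE 0.22, adjusted p = 0.00043). Its order was control lung, Cre+ lung, control LSEC, Cre+ LSEC and then both thymus groups, with overlap between Cre+ lung and control LSEC and between the thymus groups. Sox7 on 1416564_at was higher in control LSEC by 1.00 (SE 0.20, adjusted p = 0.00208), and only its thymus groups overlapped. In thymus both genes read under the filter on every array, from 5.74 to 6.36 for Sox18 and from 4.78 to 5.59 for Sox7.

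Among the Ets genes, Erg was lowest and Ets1 highest in thymus. Erg 1440244_at averaged 9.25 ± 0.41 in Cre+ LSEC and 9.66 ± 0.25 in control LSEC (SD, n = 3 each), 8.21 ± 0.14 in Cre+ lung and 8.68 ± 0.51 in control lung (SD, n = 2 each), and 3.40 ± 0.41 in Cre+ thymus and 3.16 ± 1.01 in control thymus (SD, n = 2 each). In the order of means its neighbouring endothelial groups overlapped, except control and Cre+ lung, and the difference of 0.98 between control LSEC and control lung did not pass (95% interval 0.13 to 1.84, adjusted p = 0.0611). Ets1 1426725_s_at read 12.53 and 12.45 in Cre+ thymus and 12.58 and 12.57 in control thymus, against 11.26, 11.28 and 11.32 in control LSEC and 10.28 and 10.29 in control lung. Fli1 1433512_at, a factor of both blood and endothelium, was 1.12 higher in control LSEC than in control lung (SE 0.18, adjusted p = 0.000497), but 1422024_at differed by 0.04 (adjusted p = 0.896), so its probe sets disagreed.

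Lmo2 and Tal1, partners in 1 complex, were distributed differently. Lmo2 1454086_a_at read 9.36, 9.29 and 9.34 in Cre+ LSEC and 9.12, 8.97 and 9.12 in control LSEC, 9.64 and 9.30 in Cre+ lung and 9.87 and 10.06 in control lung, and 6.81 and 6.90 in Cre+ thymus and 6.44 and 6.30 in control thymus. It was lower in control LSEC than in control lung by a difference of -0.90 (SE 0.11, adjusted p = 0.000103). Tal1 1449389_at stayed between 7.23 and 8.21 on all 14 arrays, and its difference between the control endothelia was 0.40 (adjusted p = 0.0563).

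Maf was highest in LSEC on 5 of its 6 probe sets. On the brightest, 1456060_at, the order was control LSEC, Cre+ LSEC, Cre+ lung, control lung, Cre+ thymus and control thymus, with no overlap between neighbours. Control LSEC exceeded control lung by 1.78 on this probe set (SE 0.16, adjusted p = 8.16e-06). On 1447945_at, close to the filter in every tissue, all neighbouring groups overlapped and the control endothelia differed by 0.19 (adjusted p = 0.402).

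**Figure D1:**
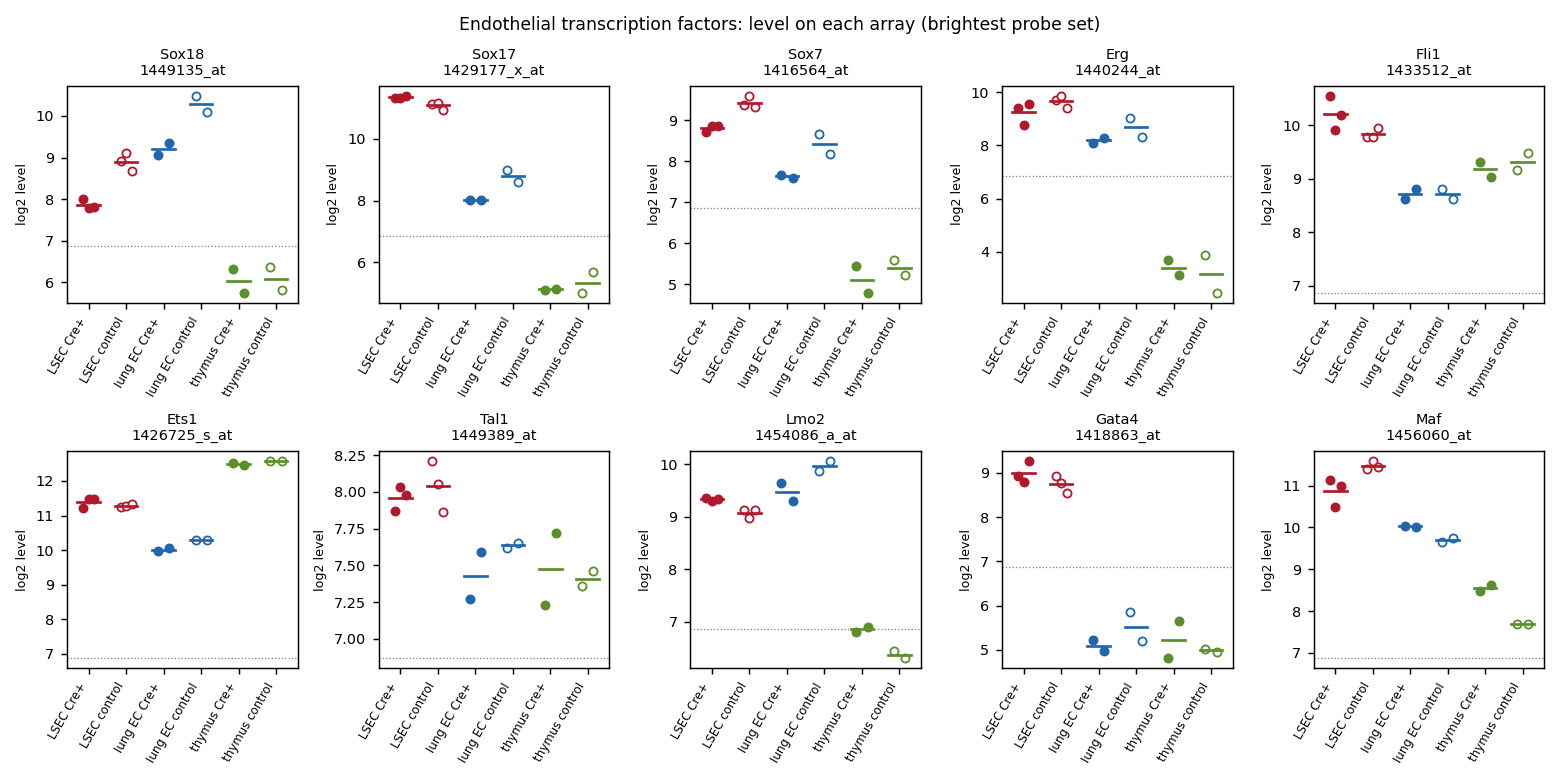
Level of each transcription factor gene on its brightest probe set, on the log2 scale, with 1 point per array, filled for Cre+ and open for control, horizontal bars at group means and a dotted line at the filter level of 6.87. Gata4 lies above the line in LSEC alone, Ets1 is highest in thymus, and Sox18 is lower in Cre+ than in control samples of LSEC and of lung.

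Most of the tested members read lower in thymus cells than in the endothelia. Their choice as endothelial factors and the filter both favoured this direction. Of the 21 probe sets, 4 were higher and 14 lower in control thymus than in the mean of the control endothelia, and 3 did not pass. Of all probe sets tested, 66.9% passed, 33.4% as higher and 33.5% as lower. The 4 higher ones were the Ets1 probe sets, with differences between 1.79 and 2.50. The lower ones included Erg (-6.01), Sox17 (-4.58 on 1429177_x_at and -3.36 on 1421657_a_at), Sox7 (-3.53), Sox18 (-3.50), Lmo2 (-3.15) and Gata4 (-2.15 and -2.46), all with dim thymus levels. These probe sets, and some of the lower ones of Maf, passed the filter through endothelial samples alone. The count of lower members and the p-values of these probe sets are therefore not independent support for a difference. Tal1, above the filter in every tissue, differed by -0.43 (adjusted p = 0.02). Both Fli1 probe sets and Maf 1447945_at were the ones that did not pass.

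The genotype comparison set LSEC of Cre+ mice against LSEC of controls. Sox18 and Maf fell in Cre+ LSEC and the other 8 genes did not pass the test. Of 21 probe sets, 2 passed, both lower, where 5.23% of all 27022 probe sets passed in either direction and 2.61% passed as lower. At an unadjusted p under 0.05 there were 9, against 19.1% of all probe sets. Cre+ and control levels did not overlap for 8 of the 21, against 22.8% of all. The median difference was 0.03 over the members and 0.01 over all probe sets.

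The larger of the falls was that of Sox18. It read 8.0, 7.78 and 7.81 in Cre+ LSEC, against 8.91, 9.12 and 8.67 in control LSEC, and every Cre+ array lay below every control array. The difference was -1.04 (SE 0.19, 95% interval -1.46 to -0.61), a 2.05-fold lower signal (limma adjusted p = 0.011). It passed under each of 23 alternative settings, fits without 1 array included, with differences between -1.15 and -0.93 and adjusted p-values between 0.00387 and 0.045. The pan-endothelial marker list, given above, had 1 fall among its 10 genes, Robo4, with a median of -0.18, and its part in the fall of Sox18 was not tested.

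Maf fell by a smaller amount. The probe set 1456060_at read 11.14, 10.49 and 11.00 in Cre+ LSEC, against 11.40, 11.59 and 11.44 in control LSEC, with replicate 2 the lowest of the Cre+ arrays and no overlap between groups. The difference was -0.60 (SE 0.14, 95% interval -0.91 to -0.29), a 1.52-fold lower signal (adjusted p = 0.0327). The call was kept in 10 and lost in 13 of 23 alternatives, with adjusted p-values between 0.0113 and 0.164 and differences between -0.73 and -0.41. It was lost when any 1 of 10 arrays was left out, namely each of the 3 LSEC controls (adjusted p = 0.0639, 0.105 and 0.0714), Cre+ LSEC replicate 3 (0.0559), the 4 lung arrays (0.0501 to 0.052) and the 2 control thymus arrays (0.0513 and 0.051). Without Cre+ LSEC replicate 2 the difference was -0.41 and still passed (adjusted p = 0.0377).

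The other Maf probe sets only partly shared this difference. On 1437473_at it was -0.70 (95% interval -1.10 to -0.29, adjusted p = 0.0529), and it passed without Cre+ LSEC replicate 3 (adjusted p = 0.0366). The probe sets 1435828_at and 1447849_s_at differed by -0.61 (adjusted p = 0.236) and -0.63 (adjusted p = 0.29), and on both Cre+ replicate 2 was the lowest array, at 7.57 and 7.80. The remaining 1447945_at and 1444073_at differed by -0.22 (adjusted p = 0.492) and 0.03 (adjusted p = 0.925), so the probe sets of Maf disagreed. Macrophages also express Maf, and the macrophage list averaged 9.94, 8.78 and 8.47 in Cre+ LSEC and 8.84, 8.66 and 10.0 in control LSEC. Cre+ replicate 1 was the highest Cre+ array for this list and for Maf 1456060_at. The lowest Cre+ array was replicate 3 for the list and replicate 2 for Maf. Among controls, replicate 2 was the lowest for the list and the highest for Maf. None of the 8 tested genes of the list passed in LSEC (0 at an unadjusted p under 0.05 in limma), and its part in the Maf values was not tested.

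**Figure D2:**
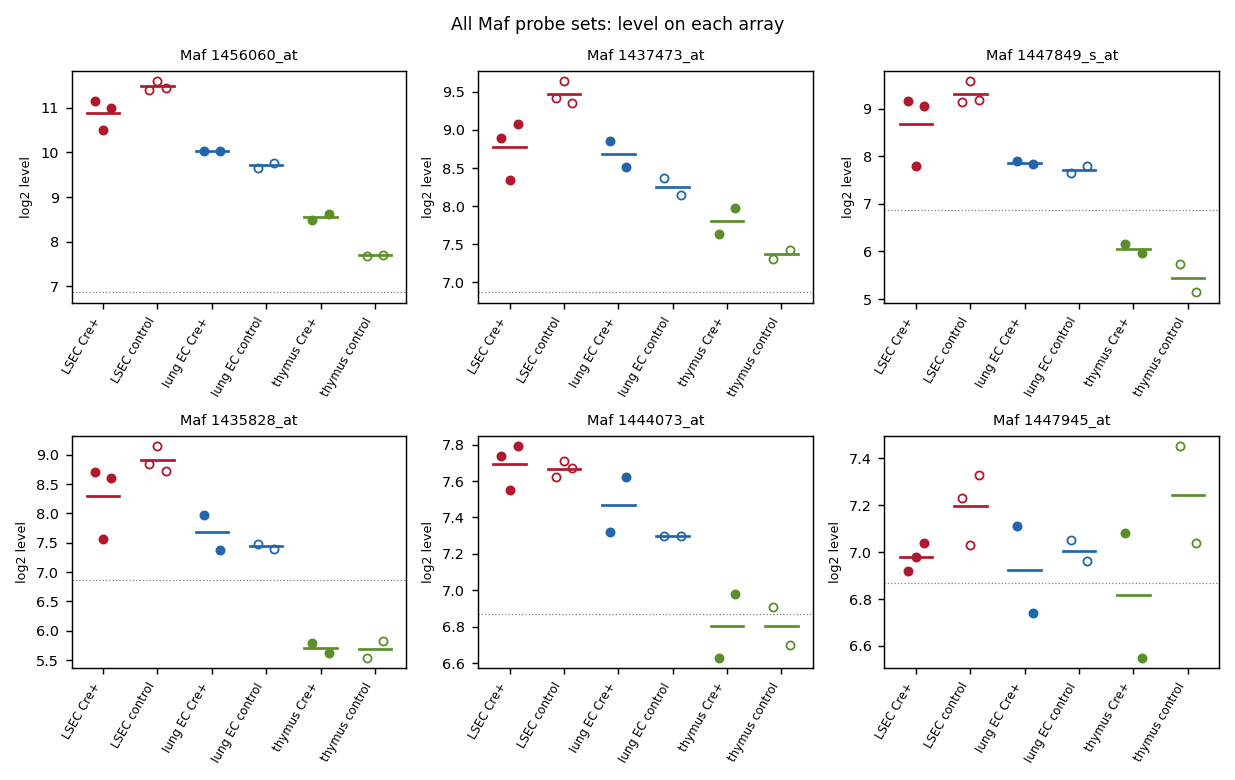
Level of each of the 6 Maf probe sets on every array, on the log2 scale, with filled points for Cre+, open points for control, bars at group means and a dotted line at 6.87. On 1456060_at the Cre+ samples are below controls in LSEC and above them in thymus, and Cre+ LSEC replicate 2 is the lowest LSEC array on 5 of the 6 probe sets.

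Sox7 resembled Sox18 in the LSEC values without passing. It read 8.70, 8.86 and 8.85 in Cre+ LSEC, against 9.36, 9.60 and 9.33 in control LSEC, with no overlap, and the difference was -0.63 (95% interval -1.02 to -0.23, adjusted p = 0.0737). It passed in the fit on the LSEC arrays alone (adjusted p = 0.0466), with trend and robust variance (adjusted p = 0.0449) and when either Cre+ thymus array was left out (adjusted p = 0.0339 in each case), and did not pass in the other 19 alternatives (adjusted p up to 0.197). Sox17 lay on the other side, at 0.42 on 1421657_a_at (95% interval 0.14 to 0.70, adjusted p = 0.0878) and at 0.26 on 1429177_x_at (adjusted p = 0.413), again with no overlap between groups. In these values Sox17 was on the higher side in Cre+ LSEC, with Sox7 and Sox18 on the lower side.

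The Ets genes did not pass in LSEC. Fli1 differed by 0.56 on 1422024_at (95% interval 0.11 to 1.01, adjusted p = 0.155) and by 0.38 on the brighter 1433512_at (adjusted p = 0.22). It read 9.03, 8.04 and 8.54 in Cre+ LSEC and 7.71, 8.20 and 8.0 in control LSEC on 1422024_at, so the groups overlapped. Without Cre+ LSEC replicate 2 the difference was 0.81 and passed (adjusted p = 0.021). Ets1 differed by between -0.06 and 0.29 on its 4 probe sets, and the interval for 1426725_s_at ran from -0.08 to 0.30. Erg differed by -0.42 with a wide interval of -1.18 to 0.35 (adjusted p = 0.572).

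Gata4, Lmo2 and Tal1 also did not pass. Gata4 1418863_at read 8.93, 8.80 and 9.27 in Cre+ LSEC, against 8.93, 8.78 and 8.54 in control LSEC. The groups overlapped, and the difference was 0.25 (95% interval -0.25 to 0.75, adjusted p = 0.604), with 0.28 on 1418864_at (adjusted p = 0.632). Lmo2 differed by 0.26 (95% interval 0.03 to 0.48, adjusted p = 0.193) with no overlap. Tal1 differed by -0.08 (95% interval -0.38 to 0.23, adjusted p = 0.807).

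**Figure D3:**
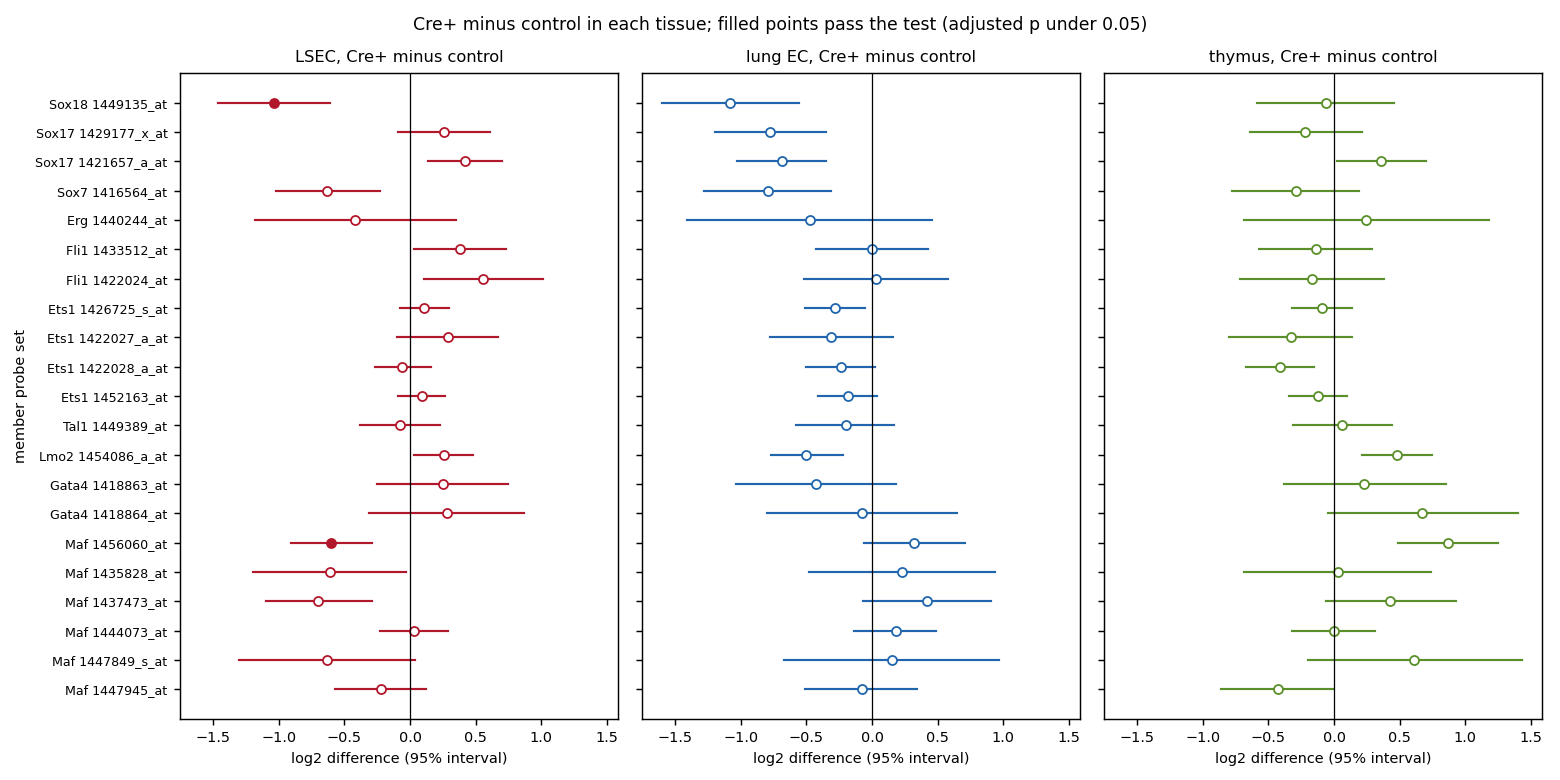
Difference between Cre+ and control samples (Cre+ minus control, log2 scale) with its 95% interval for the 21 tested probe sets in LSEC, lung endothelium and thymus, filled where the adjusted p was under 0.05. Filled points are Sox18 and Maf 1456060_at in LSEC, and Maf 1456060_at has opposite signs in LSEC and thymus.

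Single genes of the groups around these factors passed in LSEC, with each gene read on its brightest probe set and with 5.45% of 13034 genes called in either direction, 2.49% as higher and 2.97% as lower. Of 16 other Ets family genes tested, Gabpa, which encodes the DNA-binding subunit of GA-binding protein, rose by 0.33 (SE 0.08, adjusted p = 0.0321) and none fell. Of 8 other Sox genes, Sox12 fell by 0.36 (SE 0.09, adjusted p = 0.0417), and of 3 other Maf family genes 0 passed in limma, with 2 at an unadjusted p under 0.05. Of 5 other GATA and FOG genes, Zfpm1 rose by 0.62 (SE 0.11, adjusted p = 0.00916) and Zfpm2 fell by 1.63 (SE 0.24, adjusted p = 0.00279), both encoding FOG cofactors of GATA proteins. Of 11 partner genes of Tal1 and Lmo2, the LIM-only gene Lmo1 rose by 0.74 (SE 0.18, adjusted p = 0.0351) and Tcf4, which encodes an E protein that can dimerise with Tal1, fell by 0.73 (SE 0.10, adjusted p = 0.00231). Of 11 other endothelial transcription factor genes, the venous factor gene Nr2f2 rose by 0.46 (SE 0.11, adjusted p = 0.043) and the homeobox gene Hlx fell by 1.12 (SE 0.20, adjusted p = 0.00843).

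Among 23 endothelial genes with known Ets or Sox F control regions, 2 rose and 3 fell in Cre+ LSEC, and 18 did not pass. Vwf, the von Willebrand factor gene, rose by 3.27 (SE 0.33, adjusted p = 0.000263) and Nos3, the endothelial nitric oxide synthase gene, rose by 1.17 (SE 0.20, adjusted p = 0.00662). The tight junction gene Cldn5 fell by 1.42 (SE 0.19, adjusted p = 0.00182), the guidance receptor gene Robo4 fell by 1.25 (SE 0.18, adjusted p = 0.0024) and the adhesion molecule gene Vcam1 fell by 1.06 (SE 0.16, adjusted p = 0.0028). Cdh5, Kdr and Tie1 differed by -0.18, -0.18 and 0.14 without passing, and the list median was -0.18. In the list of 13 tested sinusoidal genes 11 fell and none rose, with a median of -1.60, against a median of 0.02 over the 10 transcription factor genes and 0.01 over all probe sets. Lyve1, a hyaluronan receptor gene, fell by 3.45 (SE 0.20, adjusted p = 9.39e-06) and the Fc receptor gene Fcgr2b fell by 2.21 (SE 0.19, adjusted p = 0.000115). In the list of 11 continuous capillary genes 3 rose, Vwf, Cd9 (2.04) and Mcam (2.01), and Esm1 fell by 3.46. Over the same lists in lung, Bmp2, a sinusoidal gene, fell by 1.59 (SE 0.21, adjusted p = 0.0394) and no other gene passed, where 0.046% of genes did. In thymus Flt1, a receptor gene of the vascular endothelial growth factors, rose by 1.00 (SE 0.14, adjusted p = 0.0136) and no other listed gene passed, where 0.391% of genes did. These lists were chosen with results of these arrays known, and the difference between them was not tested.

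Of the 20 marker lists, 5 averaged higher and 3 lower in Cre+ LSEC with no overlap between arrays. The mast cell list averaged 7.50, 6.85 and 6.25 in Cre+ LSEC and 5.52, 5.37 and 5.42 in control LSEC, with 3 of 4 tested genes higher. The list of genes induced by handling, such as Fos and Egr1, averaged 9.53 to 9.70 in Cre+ LSEC and 10.13 to 10.56 in control LSEC, with 6 of 10 genes lower. The arterial list averaged 7.03, 7.24 and 6.81 in Cre+ LSEC and 6.53, 6.64 and 6.59 in control LSEC, with 1 of 6 tested genes, Sema3g, higher and 5 at an unadjusted p under 0.05. The neutrophil list averaged 7.90, 5.68 and 6.40 in Cre+ LSEC and 4.53, 5.16 and 5.09 in control LSEC. The lymphatic list, on the same side as Sox18, averaged 7.95, 7.95 and 8.0 in Cre+ LSEC and 8.28, 8.22 and 8.37 in control LSEC. No gene of the neutrophil or lymphatic list passed in limma, with 1 and 2 at an unadjusted p under 0.05. The lung endothelial and megakaryocyte lists were the other 2 on the higher side, and the LSEC list the other on the lower side. Their part in the values of Sox18, Sox17, Maf and the gene groups was not tested.

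**Figure D4:**
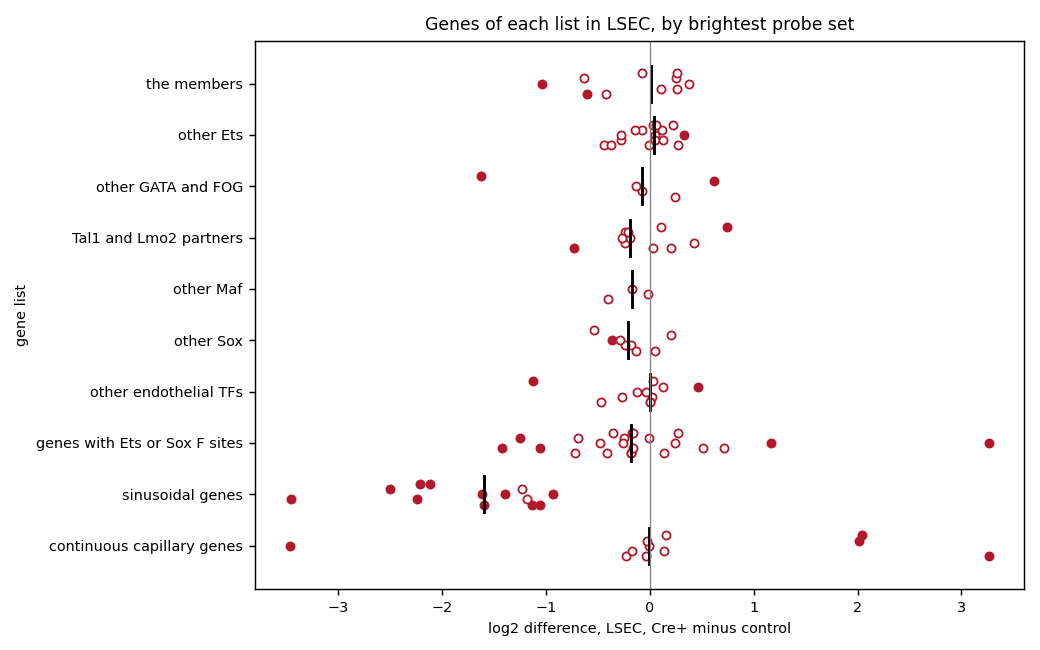
Difference between Cre+ and control LSEC (Cre+ minus control, log2 scale) for each tested gene on its brightest probe set, by gene list, filled where the adjusted p was under 0.05, with vertical bars at list medians. The transcription factor lists centre near 0, between -0.21 and 0.04, and the sinusoidal genes centre at -1.60.

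In lung endothelium no member passed. Of 21 probe sets 0 passed (limma, adjusted p under 0.05), where 0.0333% of all probe sets passed. At an unadjusted p under 0.05 there were 6, against 4.73% of all. Levels of the groups, with 2 arrays each, did not overlap for 15 of the 21, against 39.3% of all. The median was -0.20 over the members and 0.01 over all probe sets.

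The 3 Sox F genes and Lmo2 had the largest negative differences in lung. Sox18 read 9.07 and 9.35 in Cre+ lung, against 10.49 and 10.09 in control lung, a difference of -1.08 (SE 0.24, 95% interval -1.60 to -0.56, adjusted p = 0.297). Sox17 differed by -0.69 on 1421657_a_at (95% interval -1.03 to -0.35, adjusted p = 0.326) and by -0.78 on 1429177_x_at (adjusted p = 0.488). Sox7 read 7.66 and 7.60 in Cre+ lung and 8.67 and 8.18 in control lung, a difference of -0.79 (95% interval -1.28 to -0.31, adjusted p = 0.64). Lmo2 differed by -0.50 (95% interval -0.77 to -0.22, adjusted p = 0.498). In each of these the Cre+ and control arrays did not overlap, and none passed the adjusted test.

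The remaining lung differences were small or loosely determined. Ets1 differed by between -0.31 and -0.18 on its 4 probe sets, all without overlap, and Fli1 by 0.03 on 1422024_at and by under 0.01 on 1433512_at. Erg differed by -0.47 with an interval of -1.41 to 0.46. Maf lay on the other side, at 0.32 on 1456060_at (95% interval -0.06 to 0.71). Of the 20 marker lists, cholangiocyte and macrophage averaged higher and arterial, erythroid and handling lower in Cre+ lung, with no overlap between arrays. The arterial marker list, on the higher side in Cre+ LSEC, averaged 7.25 and 7.21 in Cre+ lung and 7.88 and 7.61 in control lung, and the macrophage list 9.14 and 9.31 in Cre+ lung and 8.73 and 8.77 in control lung. No gene of either list passed in limma, with 3 arterial and 0 macrophage genes at an unadjusted p under 0.05, and their part in the values was not tested.

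The genotype effects of LSEC and lung were compared directly, with the effect in LSEC minus that in lung. Of 21 probe sets 0 passed in limma, where 0.326% of all did, and 6 had an unadjusted p under 0.05, against 9.97% of all. The effect on Sox18 differed by 0.04 between the endothelia, with an interval of -0.63 to 0.72 (adjusted p = 0.978). Sox17 1421657_a_at gave 1.11 (95% interval 0.67 to 1.55, adjusted p = 0.0505), being higher in Cre+ LSEC and lower in Cre+ lung, and 1429177_x_at gave 1.04 (adjusted p = 0.132). Sox17 1421657_a_at passed without Cre+ LSEC replicate 1 (adjusted p = 0.0474) or control LSEC replicate 2 (adjusted p = 0.0438). It also passed with the filter at the 60th percentile, with trend and robust variance and with array weights. In 18 of its 23 alternatives it did not pass. Lmo2 gave 0.76 (adjusted p = 0.0858) and Maf 1456060_at gave -0.93 (adjusted p = 0.134).

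In thymus 0 of 21 probe sets passed in limma, where 0.448% of all probe sets did. At an unadjusted p under 0.05 there were 5, against 11.5% of all, and 10 did not overlap between groups, against 42.4% of all. Maf 1456060_at read 8.49 and 8.63 in Cre+ thymus, against 7.69 and 7.70 in control thymus, a difference of 0.87 (SE 0.17, 95% interval 0.49 to 1.25, adjusted p = 0.0654). It passed without Cre+ LSEC replicate 1 (adjusted p = 0.0477) or replicate 2 (adjusted p = 0.0118). Lmo2 differed by 0.48 (adjusted p = 0.147) from dim levels. Ets1, a factor of T cell development, differed by -0.41 on 1422028_a_at (adjusted p = 0.194) and by -0.09 on the brightest 1426725_s_at (95% interval -0.32 to 0.14).

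Beside Maf, 11 of the 20 marker lists averaged higher in Cre+ thymus with no overlap between arrays, and 0 lower. With 2 arrays per group, 42.4% of all single probe sets did not overlap either. Among the 11, the LSEC, hepatocyte, lung endothelial, lung epithelial and pan-endothelial lists averaged under 6.87 on every thymus array. The cholangiocyte and mural lists were also among them. The macrophage list averaged 7.95 on both Cre+ arrays and 7.56 and 7.61 on control arrays, with 0 of 8 tested genes passing in limma and 0 at an unadjusted p under 0.05. The stellate and fibroblast list averaged 7.98 and 8.13 in Cre+ thymus and 7.63 and 7.51 in control thymus, with 1 of 10 genes, Col3a1, higher. The thymic epithelial list averaged 10.44 and 10.5 in Cre+ thymus and 10.15 and 10.2 in control thymus, with 0 of 6 genes passing in limma and 1 at an unadjusted p under 0.05. The T cell list averaged 11.6 and 11.54 in Cre+ thymus and 11.47 and 11.44 in control thymus. Their part in the Maf values was not tested.

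Between LSEC and thymus, the genotype effect on Maf differed past the threshold. The effect in LSEC minus that in thymus was -1.47 on 1456060_at (SE 0.22, 95% interval -1.96 to -0.98, adjusted p = 0.0113), the 1 call among 21 probe sets, where 1.65% of all passed and 0.947% passed as lower, with 7 at an unadjusted p under 0.05 against 16.0% of all. The call was lost without control thymus replicate 1 (adjusted p = 0.0504), control thymus replicate 2 (adjusted p = 0.0572) or Cre+ thymus replicate 2 (adjusted p = 0.056). The other Maf probe sets gave values between -1.25 and 0.21 and did not pass. Sox18 gave -0.97 (95% interval -1.65 to -0.30, adjusted p = 0.147), with thymus levels too dim to give a size.

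The genes most like both called members over all 14 arrays and 13034 genes were ranked by Pearson's r as a description. For Maf 1456060_at these were Atp6ap1 (0.991), which encodes an accessory subunit of the vacuolar proton pump, Vmac (0.987) and Jdp2 (0.987), a basic leucine zipper gene. For Sox18 these were Cars (0.982), a transfer RNA synthetase gene, Morc4 (0.978) and Rusc2 (0.977). The points share their tissue groups, so the 14 arrays are not independent.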

How the data were processed

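Expression was measured on Affymetrix Mouse Genome 430 2.0 arrays, 14 in 6 groups. The deposited values run from 0 to 13.8, with 223 to 312 exact zeros per array, and were taken as log2 from that range, since no source used here gives the authors' log base, summarization or normalization. Array medians spanned 0.282, so arrays were quantile normalised and fitted with limma 3.58.1 in R 4.3.3 as 6 group means (8 residual and 3.035 prior degrees of freedom). P-values were adjusted by Benjamini-Hochberg over 27022 probe sets at 0.05, and adjusted p-values in the text come from this fit, which shares 1 spread over all groups. Of 45101 probe sets, 64 were controls, 34945 had 1 gene symbol in the platform annotation, 932 several and 9160 none.

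A gene was described by its brightest probe set and up to 4 called genes were named per list; genes likest a called member were the top 3 by Pearson's r. The members, the 9 gene lists and the 20 marker lists were chosen with earlier results of these data known. Alternatives covered the filter, normalization, variance model, array weights, samples fitted, probe sets, pairing and each array left out. Cre+ and control arrays of 1 replicate number correlated, in deviations from group means, at -0.242 to 0.0677, so replicate numbers were not used as pairs. The number of arrays limits the precision.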

Additional observations from a re-analysis of the deposited data

Results flagged for a closer look

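The genotype effect on Maf differed between LSEC and thymus on the probe set 1456060_at, by the test of the difference itself. The effect in LSEC minus the effect in thymus was -1.47 (limma adjusted p = 0.0113), made up of -0.60 in LSEC and 0.87 in thymus. All 3 Cre+ LSEC arrays lay below all control LSEC arrays, and both Cre+ thymus arrays lay above both control thymus arrays. The call was lost when any 1 of 3 thymus arrays was left out, with adjusted p-values between 0.0504 and 0.0572. The probe set 1437473_at gave -1.13 without passing (adjusted p = 0.0814). Nor did the other Maf probe sets pass, at -1.25 on 1447849_s_at, -0.64 on 1435828_at, 0.03 on 1444073_at and 0.21 on 1447945_at. On 1456060_at the thymus effect alone did not pass (limma adjusted p = 0.0654). The LSEC effect alone passed (limma adjusted p = 0.0327) but lost its call in 13 of 23 alternatives. In thymus 11 of the 20 marker lists were also higher in Cre+ samples with no overlap between arrays, the macrophage and T cell lists among them. The macrophage list averaged 7.95 on both Cre+ arrays against 7.56 and 7.61 on controls. The part of these lists in the difference was not tested.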

How the results depend on the processing

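Of 37 called differences of the members, 0 changed sign under any alternative run. Of 110 that did not pass, 32 took both signs, among them Tal1 in LSEC (-0.17 to 0.01) and Sox18 for LSEC minus lung (-0.16 to 0.24). The 2 called probe sets in LSEC became 1 with no filter, 3 with the filter at the 60th percentile, 4 with trend and robust variance, 1 with the replicate block, and 1 to 3 when 1 array was left out. In lung the count was 0 under each alternative. In thymus it was 0, but 1 with the filter at the 60th percentile, 1 with trend and robust variance, and 0 to 1 with 1 array left out. For the effect in LSEC minus that in lung it was 0, but 1 with the filter at the 60th percentile, 2 with trend and robust variance, 1 with array weights, and 0 to 1 with 1 array left out. For LSEC minus thymus it was 1, but 2 with trend and robust variance, 0 with the replicate block, and 0 to 1 with 1 array left out. With 1 probe set per gene, where fewer probe sets are tested, the control LSEC against lung count was 9 in place of 16 and the thymus count 9 in place of 18. The causes of the other changes were not tested.

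Of the members, Sox18 kept its call in 23 of 23 alternatives. Maf 1456060_at lost its LSEC call with no filter (adjusted p = 0.0859), with only the LSEC arrays (0.164) and with the replicate block (0.132), and its LSEC minus thymus call with the replicate block (0.0995). The replicate numbers did not pair the samples, and the block changed no other call of a member in these contrasts. With the lung numbers crossed, a block chosen after seeing the data, 0 probe sets passed in lung, and 3 higher and 2 lower ones for LSEC minus lung.

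Over all probe sets, the LSEC count was 1412, between 925 and 1514 with 1 array left out and between 495 and 1678 under the other alternatives. It was 9 in lung (4 to 19, and 0 to 60), 121 in thymus (16 to 329, and 6 to 201), 88 for LSEC minus lung (9 to 132, and 0 to 262) and 446 for LSEC minus thymus (106 to 1011, and 29 to 714). Leaving 1 array out of lung or thymus left a lone sample assumed to vary like the other groups. Signals under 6.87, as for Gata4 in lung and thymus and for Sox7, Sox17, Sox18 and Erg in thymus, limit the size of a difference.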
